A study of Mus musculus with 3 samples.

Results

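Potassium channel genes were taken as the protein-coding genes of mouse whose symbols begin with Kcn, a family letter and a number, which gave 93 of the 20823 genes with rows for both UTRs and the CDS in the deposited tables. The rule uses gene symbols alone and no measured value. Ribosome profiling, in which the stretches of mRNA covered by ribosomes survive a nuclease and are sequenced, had been done on primary cortical neurons grown from mouse embryos, for which the labels give no genotype. WT cultures received no drug, Chx cultures received cycloheximide for 2 min, and Harr cultures received harringtonine for 2 min followed by a pulse of cycloheximide. The titles and treatment labels were used for this grouping, while the free-text sample descriptions name input and pulldown fractions of another experiment and go against them, a conflict that could not be resolved here. Each treatment was represented by 1 library made from 3 pooled dishes, and cycloheximide at 100 µg per ml was in the buffers used for all 3, the WT library included. Differences between treatments thus rest on single libraries, no p-value is given, and intervals cover counting error only.

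Cycloheximide halts elongating ribosomes, whereas harringtonine traps newly initiated ribosomes and lets the others finish. The libraries held 30219197 (WT), 35722483 (Chx) and 9754412 (Harr) reads, so Harr values were the least precise. Reads were counted at their 5′ end, and the footprint of a ribosome at an annotated start codon thus falls in the 5′ UTR. The 8 neuron markers together had 5142 CDS reads per 1000000 in WT, 5021 in Chx and 4238 in Harr. Those for 4 astrocyte markers were 213, 195 and 78.8. The 4 markers each of microglia, oligodendrocytes and pericytes or endothelium summed to between 1.03 and 6.52 reads per 1000000 in every library, with Mog and Mobp at 0 in all 3. Neuron markers were thus abundant, and astrocyte markers were read as well, mostly Slc1a3 (3809 reads in WT) and Aldh1l1 (2263), with 68 for Gfap, although the study describes its cultures as free of non-neuronal cells. In bulk cultures, fewer cells of a type and less RNA per cell cannot be told apart.

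Potassium channels let potassium leave or enter the cell, and in cortical neurons they set the resting potential, shape and end the action potential and limit repetitive firing. The voltage-gated channels (Kv1 to Kv4, Kv7 and Kv10 to Kv12) open on depolarization, and the silent modifiers (Kv5, Kv6, Kv8 and Kv9) act only in complexes with Kv2 subunits. Calcium- and sodium-activated channels (BK, SK, Slack and Slick) respond to ions inside the cell, inward rectifiers (Kir) favour inward current, K2P channels carry leak current, and auxiliary subunits (Kv beta, KChIP, KCNE and BK beta) alter gating or trafficking of the pore proteins.

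The start codons of 7 members on which the results turn are shown first, each as 12 bases of 5′ UTR, the start codon in capitals and 15 bases of CDS. Sequences are from GENCODE M21 transcripts on the GRCm38 (mm10) build, 5′ to 3′ on the strand of the gene.
Kcna4: caaaccaccaccATGgaagtggcgatggtg
Kcna6: cgccgaggtgacATGagatcggagaaatcc
Kcnd2: cttccagacaacATGgcagccggtgttgca
Kcnj3: cccctccgtattATGtctgcactccgaagg
Kcnj9: gctgcggccgccATGgcgcaggagaacgcc
Kcnk9: ttcttcgcggccATGaagcggcagaacgtg
Kcnk10: ccttttttgtggATGtatttttcctacata
These start codons lie at chr2:107294923-107294925 (Kcna4, plus strand), chr6:126739922-126739924 (Kcna6, minus), chr6:21216299-21216301 (Kcnd2, plus), chr2:55437201-55437203 (Kcnj3, plus), chr1:172326553-172326555 (Kcnj9, minus), chr15:72546277-72546279 (Kcnk9, minus) and chr12:98577826-98577828 (Kcnk10, minus). A purine at the third base before the ATG together with G right after it is the combination that favours initiation in vertebrates, and 34 of the 92 members with a matching sequence had it, or 37.0%, beside 41.0% of all genes with one. Kcna4, Kcnd2 and Kcnj9 were among them, and Kcnk10 had T at both positions.

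Most potassium channel genes were read in these cultures. At least 10 CDS reads were found for 70 members in WT (background 62.3% of all genes), 70 in Chx (background 63.0%) and 62 in Harr (background 54.0%). All 3 libraries reached 10 reads for 62 members, some but not all did for 8 (Kcna10, Kcnh4, Kcnh6, Kcng3, Kcnj9, Kcnj12, Kcnk4 and Kcnk13), and none did for 23. Together the members took 805 CDS reads per 1000000 in WT, 918 in Chx and 623 in Harr, which was 0.146%, 0.162% and 0.161% of all CDS reads. The voltage-gated subunits with a pore of their own were the largest class, with 352 reads per 1000000 in WT, followed by Kir with 146, K2P with 96.0, auxiliary subunits with 76.5, calcium- and sodium-activated channels with 76.4 and silent modifiers with 57.9. Over the 61 members whose CDS reads summed to at least 100, Spearman's rho of the CDS level per length was 0.985 for Chx with WT, 0.922 for Harr with Chx and 0.874 for Harr with WT, as a description across genes that share their libraries.

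Among inward rectifiers, Kcnj3, a subunit of the G-protein-gated channel, and Kcnj4, a strong rectifier, were the most read. Kcnj3 had 38.5 RPKM (CDS reads per kilobase and per 1000000 reads) in WT, 40.4 in Chx and 36.6 in Harr. Kcnj4 had 30.4 RPKM in WT, 41.2 in Chx and 17.3 in Harr, so that its Harr level was the lowest of the 3. Kcnj6, another G-protein-gated subunit, stood at 14.1, 12.1 and 2.71 RPKM in the same order, while Kcnj9, its partner, was low at 2.38, 1.47 and 0.52 RPKM. Kcnj10, the main rectifier of astrocytes, had 388 CDS reads in WT, 387 in Chx and 54 in Harr, or 11.3, 9.503 and 4.86 RPKM, beside the astrocyte marker values above. The part of astrocytes in this level was not tested. Kcnj8, which is known from vessels, had no read in any region of any library, and Kcnj13, known from epithelia, had 1 read in WT and 2 in Chx, all in the 5′ UTR.

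Of the voltage-gated channels, Kv1 and Kv4 stood out by level. Kcnd2, the main Kv4 subunit of the somatodendritic A-type current, had 27.4 RPKM in WT, 35.0 in Chx and 15.5 in Harr. Kcna6 followed with 26.2, 29.7 and 16.2 RPKM, Kcna4 with 13.9, 15.9 and 13.7, Kcna3 with 13.8, 16.2 and 9.56, and Kcna1, a subunit of axonal Kv1 channels, with 8.27, 10.8 and 6.27. Kcnd3 was at 9.84 RPKM in WT, 12.1 in Chx and 5.10 in Harr. Kv7 channels carry the M-current that damps firing, and here Kcnq5 (6.77, 8.77 and 8.61 RPKM in WT, Chx and Harr) was read well above Kcnq3 (1.01, 1.08 and 0.90). Kcnh7 led the Kv10 to Kv12 group with 6.89, 6.82 and 6.83 RPKM. Kcnc1 led Kv3, the fast-spiking channels, at 7.56 RPKM in WT, 9.19 in Chx and 5.47 in Harr. In RPKM, Harr stood lowest for the Kv1 and Kv4 genes named here, for Kcna4 by little, whereas Kcnq5 and Kcnh7 had Harr levels between those of the other libraries. RPKM is scaled to the library total. Scaled to CDS reads instead, Kcna4 was highest in Harr (log2 ratio 0.34 over Chx and 0.50 over WT). Kcna1 in Harr then lay between Chx and WT (-0.23 over Chx and 0.12 over WT).

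Kcnf1 was the most read silent modifier, with 21.5 RPKM in WT, 31.1 in Chx and 15.2 in Harr. Kcns2 (7.27, 7.55 and 3.79 RPKM), Kcnv1 (5.38, 6.499 and 3.05) and Kcng1 (1.86, 1.72 and 1.06) led the other modifier families. Among K2P channels, Kcnk10 had 22.7 RPKM in WT, 25.2 in Chx and 23.8 in Harr, Kcnk9 had 21.3, 29.0 and 20.01, and Kcnk1 had 15.2, 18.5 and 9.33. Kcnk13, known from microglia, had 15 CDS reads in WT, 32 in Chx and 3 in Harr.

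The BK channel gene Kcnma1 was read at 11.7 RPKM in WT, 13.6 in Chx and 12.6 in Harr. Kcnn2 (SK), which contributes to the afterhyperpolarization, had 6.53, 6.29 and 7.08 RPKM, and Kcnt2 had 2.02, 2.85 and 2.24. Kcnu1, the sperm-specific Slo3 channel, had 68 CDS reads in WT, 66 in Chx and 16 in Harr. They were unevenly placed, since 77 of these 150 reads (51.3%) fell in coding exon 22 of 27, which makes up 5.56% of the CDS, and none fell 300 to 900 nucleotides from the start codon. Of the auxiliary subunits, Kcnab2 was highest at 25.7 RPKM in WT, 26.4 in Chx and 7.34 in Harr. Kcnip4, which encodes a calcium-binding partner of Kv4, had 15.3, 13.2 and 2.72 RPKM, Kcnmb4, the neuronal BK beta subunit, had 11.8, 14.99 and 15.1, and Kcne1l had 11.8, 8.62 and 2.37. Kcne1 had 3 CDS reads in Chx and none in WT or Harr.

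**Figure D1:**
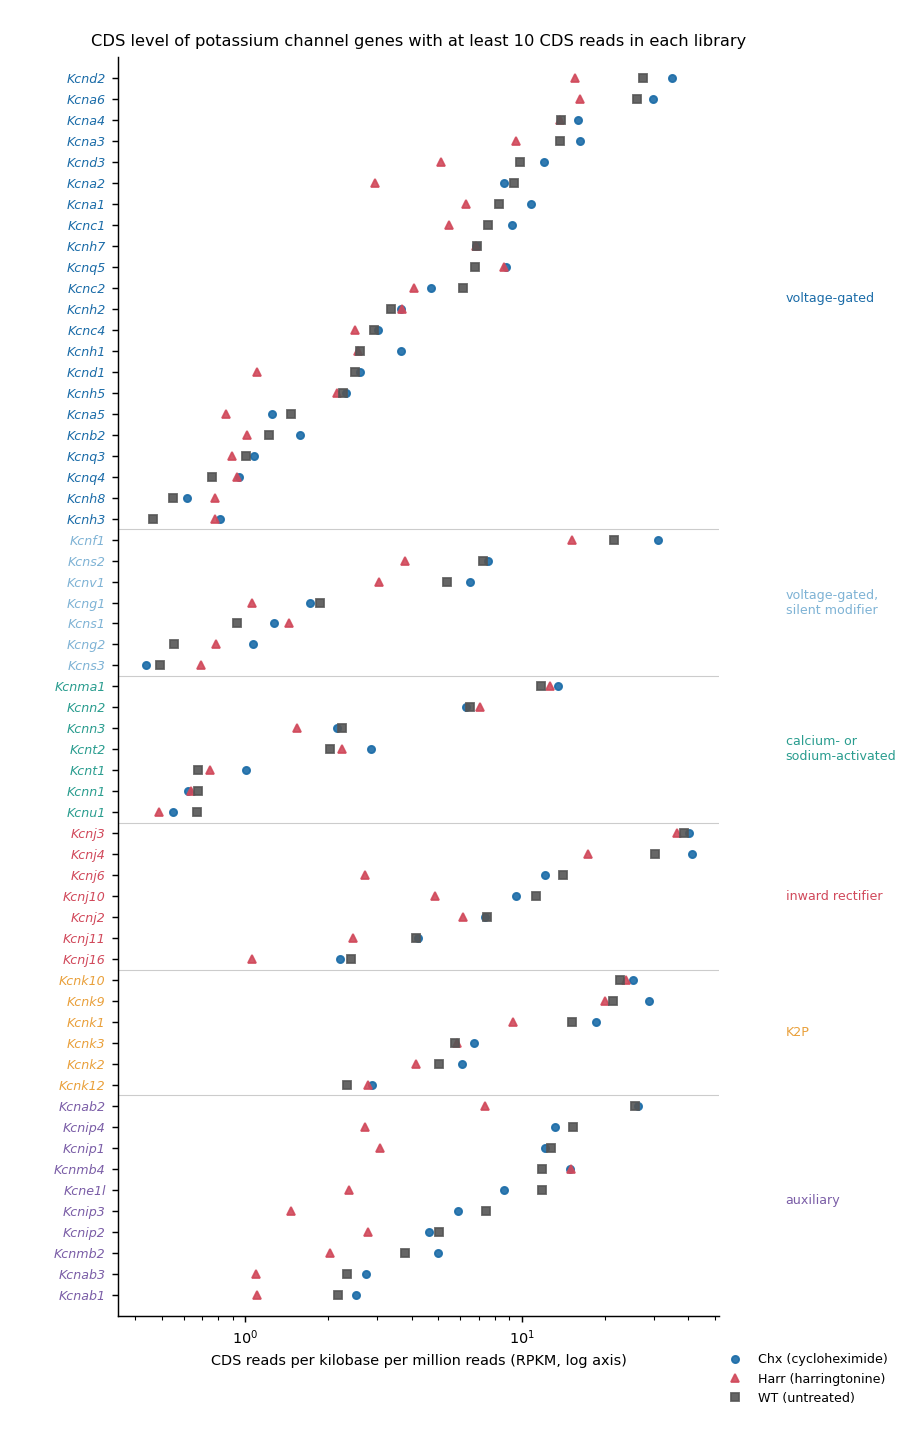
CDS level in RPKM on a log axis of 59 members with at least 10 CDS reads in each library, ordered by class and by WT level, with 1 point for each library. Kcnj3, Kcnj4 and Kcnd2 lie at the right edge, and the triangles of Harr lie to the left of both other symbols for most auxiliary subunits, such as Kcnab2 with 7.34 RPKM against 25.7 in WT.

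No read was counted in any of the 3 regions of any library for 11 members, namely Kcnj1, Kcnj5, Kcnj8, Kcnj14, Kcnk7, Kcnk16, Kcnk18, Kcnmb3, Kcnq1, Kcnv2 and Kcne4. A count of 0 allows up to 3 counts, or 0.0993 reads per 1000000 in WT, 0.0840 in Chx and 0.308 in Harr, so these genes were not detectable at this depth. The other 12 members that reached 10 CDS reads in no library were Kcna7, Kcng4, Kcnn4, Kcnj13, Kcnj15, Kcnk5, Kcnk6, Kcnk15, Kcnmb1, Kcne1, Kcne2 and Kcne3. Several of the undetected genes are known from kidney, heart or retina. Of words of 25 bases, Kcnj14 shared 37.5% with other transcripts, and members with at least 10 CDS reads shared at most 5.14%. Whether reads with several matches were counted is not stated for these tables.

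Potassium channel genes had a larger share of their reads in the 5′ UTR than all genes together. The 5′ UTR held 16.1% of the reads of the members in WT (Wilson 95% interval 15.7 to 16.5), 17.2% in Chx (16.8 to 17.6) and 48.7% in Harr (47.8 to 49.6), beside 6.14%, 8.71% and 33.5% over all genes. Kv1 genes had 29.0% in WT, 27.7% in Chx and 68.2% in Harr, and K2P genes had 7.53%, 9.19% and 18.9%. The shares of the 3′ UTR were small, with 0.769% in WT, 0.345% in Chx and 2.44% in Harr, beside 2.18%, 1.71% and 4.10% over all genes. Without Kcnj3, the member with the most reads, the 5′ UTR share was 14.98% in WT and 16.6% in Chx.

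Single genes ranged widely. Kcna4 had 785 reads in its 5′ UTR and 825 in its CDS in WT, 846 and 1117 in Chx, and 639 and 263 in Harr. That put 48.8% of its 5′ UTR and CDS reads upstream of the CDS in WT (46.3 to 51.2), 43.1% in Chx (40.9 to 45.3) and 70.8% in Harr (67.8 to 73.7). Kcnj3 had 28.5% in WT, 24.9% in Chx and 53.5% in Harr, and Kcnq3 had 48.1%, 43.9% and 61.0%. In all 3 genes Harr had the highest share, while the shares of WT and Chx lay closer to each other than to Harr. For Kcna4 the intervals of WT and Chx did not overlap, with Chx the lower. At the other end stood Kcnk10, with 1.34% in WT, 2.10% in Chx and 1.58% in Harr, and Kcnip4, with 0.949%, 0.929% and 21.7%, where the counts were 3, 3 and 5 5′ UTR reads.

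**Figure D2:**
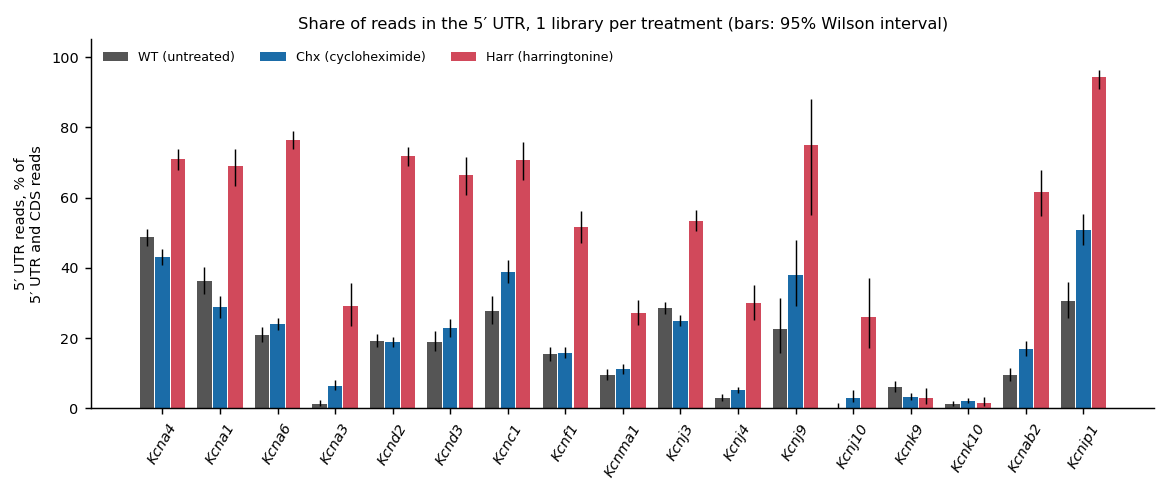
Reads in the 5′ UTR as a percent of 5′ UTR and CDS reads for 17 members, with 1 bar for each library and its 95% Wilson interval. Harr is the highest bar for Kcna4 (70.8%), Kcnd2 (71.8%) and Kcnip1 (94.3%), whereas the 3 bars of Kcnk9 lie between 2.88% and 6.02% and those of Kcnk10 between 1.34% and 2.10%.

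Per nucleotide, the 5′ UTR was read more densely than the CDS in 13 of the 57 members with at least 50 CDS reads in WT (background 19.7%), in 17 of the same 57 in Chx (background 34.4%) and in 49 in Harr (background 83.3%). The highest ratios of 5′ UTR to CDS density in WT were 5.80 for Kcnq3, 3.96 for Kcnt2, 3.32 for Kcnb2, 2.65 for Kcnh7, 2.36 for Kcnh5 and 2.11 for Kcnk12, of which Kcnq3, Kcnb2, Kcnh5 and Kcnk12 were chosen for mention after their values were seen. Kcnn2, Kcnt1 and Kcnu1 had no 5′ UTR read in WT, and the lowest ratios above 0 were 0.0121 for Kcnj10, 0.0204 for Kcnip4, 0.0454 for Kcnk10 and 0.0706 for Kcnmb4. The annotated 5′ UTR has only 8 nucleotides in Kcnt1 and 33 in Kcnu1. In Kcnn2 only 3 nucleotides of it lie in the exon of the start codon. Their counts of 0 are thus limited by the annotation.

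The first comparison asked how far harringtonine moved reads from the CDS to the 5′ UTR. The change was taken as a log2 odds ratio (5′ UTR to CDS reads in one library over the same in the other, each count raised by 0.5), and a gene with at least 10 5′ UTR reads in the pair was called where the change was at least 1 in size and its 95% counting interval excluded 0. Against Chx, 47 of 57 members were called higher in Harr (background 88.8%) and none lower (background 0.12%), with a median of 2.19 beside 2.46 over all genes. Against WT, 46 of 55 were called higher (background 93.7%) and none lower (background 0.135%), with a median of 2.56 beside 3.23. With counts of 0 set to the floor of 3, the medians of the members were 2.19 and 2.60. Against Chx the share called was near the background, and the interval of the members' median (1.81 to 2.50) held that of all genes. Against WT the share called, 83.6%, was below the background, and the interval of the members' median (1.95 to 3.01) lay below the median of all genes.

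Kcnd2 had 374 5′ UTR and 1566 CDS reads in WT, 556 and 2369 in Chx, and 731 and 287 in Harr, a change of 3.44 ± 0.12 (counting SE) from Chx to Harr. WT and Chx differed by -0.03 ± 0.11 in this ratio, and Harr stood apart. Kcna6, with a 750-nucleotide 5′ UTR that holds no upstream ATG, had 334 5′ UTR reads in WT, 533 in Chx and 819 in Harr against 1258, 1688 and 252 CDS reads, and changed by 3.36 ± 0.13. The 3 highest members for Harr over Chx were Kcnab3 (4.06 ± 0.57), Kcnip1 (3.95 ± 0.38) and Kcnv1 (3.93 ± 0.44). Part of the 5′ UTR of Kcnip1 overlaps a CDS on the same strand. For Harr over WT the highest were Kcnj10 (6.53 ± 1.24), Kcnip1 (5.18 ± 0.40) and Kcna3 (5.01 ± 0.54). The Kcnj10 value rests on 1 5′ UTR read in WT against 19 in Harr, and its interval ran from 4.10 to 8.96.

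By class, beside 88.8% of all genes and their median of 2.46, Harr was called higher than Chx in 19 of 22 voltage-gated channels (median 1.94), 5 of 5 silent modifiers (2.50), 4 of 5 calcium- or sodium-activated channels (2.17), 6 of 8 inward rectifiers (2.38) and 9 of 9 auxiliary subunits (2.96). K2P genes had the lowest class median against Chx, 1.32 (interval -0.33 to 3.39), with 4 of 8 called higher, and this interval held the median of all genes. Against WT their median was 2.01 with 6 of 8 called, beside 3.23 and 93.7% over all genes. The lowest class there was calcium- or sodium-activated channels, with a median of 1.72. Kcnk9 had 50 5′ UTR reads in WT, 44 in Chx and 7 in Harr beside 780, 1251 and 236 CDS reads, and its change was -0.17 ± 0.58 against Chx and -1.03 ± 0.57 against WT. Kcnk10 had 15, 31 and 6 5′ UTR reads beside 1102, 1447 and 374 CDS reads, and changed by -0.33 ± 0.63 and 0.30 ± 0.68. Neither gene was called in either direction, although both lay below the median of all genes by more than their intervals. Kcnh8 was lower still for Harr over Chx, but imprecisely so (-0.40 ± 1.08, from 9 5′ UTR reads in Chx and 2 in Harr). Kcnj6, Kcnj12, Kcnk3, Kcnk4, Kcnn1 and Kcnq3, chosen for mention after their values were seen, were also tested and not called against Chx, with changes between 0.73 and 2.23.

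Kcnj9, a G-protein-gated rectifier whose 5′ UTR the study placed in a reporter, was read sparsely. Its 5′ UTR had 25 reads in WT, 38 in Chx and 18 in Harr, and its CDS had 85, 62 and 6. The 5′ UTR share was 22.7% in WT (15.9 to 31.4), 38.0% in Chx (29.1 to 47.8) and 75% in Harr (55.1 to 88.0), and the change was 2.21 ± 0.72 from Chx to Harr, 3.25 ± 0.73 from WT to Harr and 1.05 ± 0.44 from WT to Chx. All 3 comparisons were called. Its 313-nucleotide 5′ UTR spans 3 exons, and its 3 upstream ATG all lie in the first of them, at nucleotides 13, 116 and 130 from the 5′ end. The second opens a reading frame of 87 nucleotides that ends before the CDS, and the third runs into the CDS in another frame. They are shown because the reads of this exon can be set beside them, with the upstream ATG in capitals.
Kcnj9 ATG at chr1:172329304-172329306: tgggaagtggggATGacacagataccaagt
Kcnj9 ATG at chr1:172329201-172329203: gtactgggggagATGgtgtcagggacatgg
Kcnj9 ATG at chr1:172329187-172329189: ggtgtcagggacATGgacgccaacccccaa
The first exon (184 nucleotides) had 17 reads in WT, 24 in Chx and 6 in Harr. The second (101 nucleotides) had 5, 6 and 7 reads, and the last 28 nucleotides before the start codon had 3, 8 and 5. These counts are too low to place reads at a single ATG.

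Between Chx and WT, both without run-off, differences were smaller. The 5′ UTR:CDS ratio was called higher in Chx for 7 of 56 members (background 30.2%) and lower for 3 (background 1.09%), with a median of 0.25 beside 0.67 over all genes. Kcnj10 (3.06 ± 1.25), Kcna3 (2.44 ± 0.53) and Kcnc2 (2.35 ± 0.56) were the highest. Kcna3 had 8 5′ UTR reads in WT and 64 in Chx beside 660 and 920 CDS reads, and Kcnc2 had 8 and 39 beside 356 and 324. Kcnj16, a partner of Kcnj10 (-2.64 ± 1.01, from 14 reads in WT and 2 in Chx), Kcnk13 (-1.32 ± 0.67) and Kcnmb2 (-1.04 ± 0.39) were the lowest, and all 3 were called.

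**Figure D3:**
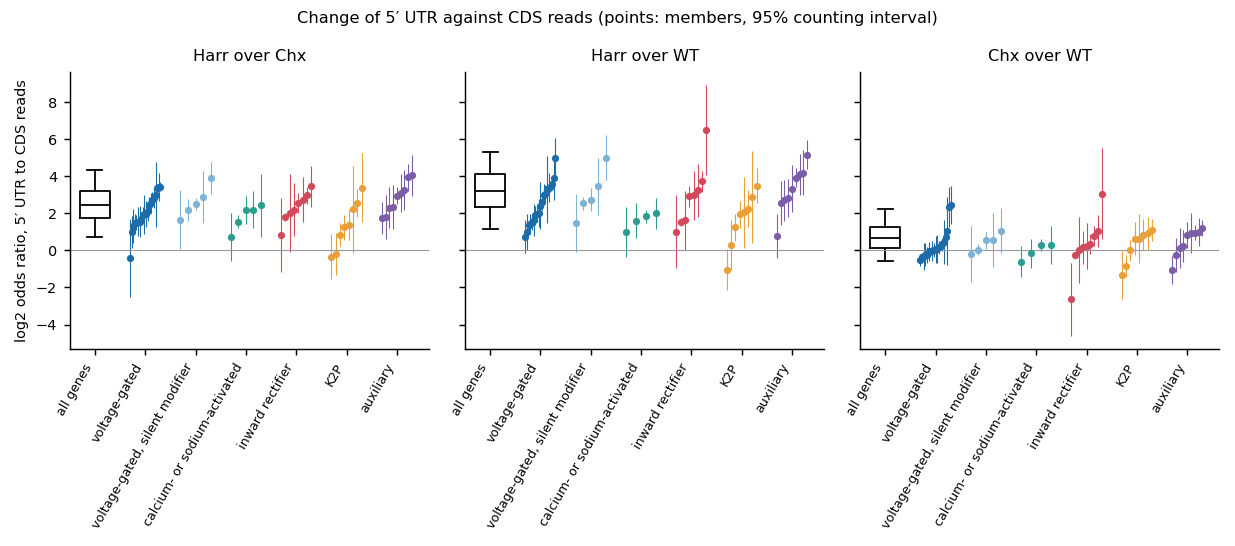
Change of the 5′ UTR:CDS ratio in log2 units for the 3 pairs of libraries, with 1 point for each member shown and its 95% counting interval, grouped by class. The box shows the median and quartiles of all genes, with whiskers at the percentiles 5 and 95. Medians of all members tested were 2.19, 2.56 and 0.25 beside 2.46, 3.23 and 0.67 over all genes.

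Upstream ATG triplets, searched on the transcript strand in the annotated 5′ UTR with overlaps allowed, were found in 71 of the 92 members with sequence (77.2%, beside 55.4% of the 20663 genes with one), 229 in all. Among the genes with at least 50 CDS reads in WT, 5′ UTRs of members were also longer, with a median of 320.5 nucleotides against 198. The WT ratio of 5′ UTR to CDS density had a median of 0.230 in 13 members without an upstream ATG, 0.568 in 21 members with 1 or 2 and 0.781 in 22 members with 3 or more, beside 0.272, 0.464 and 0.635 over all genes in these classes. In WT, members and all genes therefore went in the same order. In Chx the medians were 0.507, 0.625 and 0.872 in members and 0.561, 0.762 and 0.746 over all genes, and in Harr they were 4.15, 3.54 and 4.43 beside 3.86, 3.83 and 3.38, so outside WT the order held for the members in Chx only. Spearman's rho between the number of upstream ATG and that ratio was 0.299 over 56 members and 0.249 over all genes, and the number itself followed 5′ UTR length with a rho of 0.660 in the members, while length and the WT ratio had a rho of 0.0609, as descriptions across genes.

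Kcna4 had the most, 18 in 1212 nucleotides, and all 18 frames end before the CDS. The first exon of its 5′ UTR (433 nucleotides, 5 upstream ATG) had 171 reads in WT, 218 in Chx and 135 in Harr, and the rest (779 nucleotides, 13 upstream ATG) had 614, 628 and 504. Reads thus lay in both exons in every library. Upstream frames in which the ATG is followed at once by a stop codon were present in 10 members. These include Kcna1, Kcna2, Kcnh5 and Kcnq3, which were chosen for mention after their values were seen and whose sequences show the ATG in capitals with the stop codon behind it. The first frame of Kcna4 is given beside them, from ATG to stop.
Kcna4 frame, ATG at chr2:107290663-107290665: ATGgatactggagaaggaatgcaggcttaa
Kcna1 ATG at chr6:126644675-126644677: taccggagagccATGtagagccaggctttg
Kcna2 ATG at chr3:107103423-107103425: tcaagtgagaagATGtgacggggactgagc
Kcnh5 ATG at chr12:75177231-75177233: ggagaagctgagATGtgacctgctctcccc
Kcnq3 ATG at chr15:66286437-66286439: gacccgctcgggATGtgaccccttgactcc
In WT the 5′ UTR share was 36.3% for Kcna1 (212 reads), 27.6% for Kcna2 (162 reads), 39.0% for Kcnh5 (130 reads) and 48.1% for Kcnq3 (74 reads). A match is a description of the sequence, and the tables do not resolve reads within an exon.

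In the 39 members whose 5′ UTR spans several exons, the part in the exon of the start codon was the denser when reads were summed. It had 28.5 reads per 100 nucleotides in WT, 38.6 in Chx and 28.8 in Harr, and the exons upstream had 9.52, 11.8 and 10.01. By member, the start exon was the denser in 15 of 19 with at least 10 5′ UTR reads in WT, 18 of 20 in Chx and 15 of 19 in Harr, with Kcna1, Kcna2, Kcnj3 and Kcnip1 as the exceptions in WT, chosen for mention after their values were seen. The log2 odds of the start exon against upstream exons changed by -0.18 from Chx to Harr (interval -0.33 to -0.04). From WT to Harr the change was -0.06 (-0.22 to 0.10). In these sums, reads in upstream exons were not a smaller part of the 5′ UTR reads in Harr than in the other libraries. The upstream exon of Kcnip1, whose 5′ UTR overlaps a CDS in part, gave 278 of the 1280 upstream reads in Harr. It gave 244 of 1510 in Chx and 84 of 1217 in WT. The sums were not repeated without this gene, so the result may rest on it.

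The next comparison was of CDS reads themselves, scaled to the CDS total of each library and given on the log2 scale for genes with at least 100 CDS reads over the libraries. From Chx to Harr, 6 of 61 members were called lower (background 13.7%) and none higher (background 4.63%), with a median of 0.01 beside -0.05 over all genes. Scaled to the library total instead, 19 members were called lower (background 31.2%). The 6 called lower when scaled to CDS reads were Kcnip4 (-1.69 ± 0.34), Kcnj6 (-1.58 ± 0.30), Kcnip1 (-1.40 ± 0.36), Kcnip3 (-1.40 ± 0.44), Kcnab2 (-1.29 ± 0.17) and Kcne1l (-1.25 ± 0.46). Each has a CDS under 1200 nucleotides in the transcript used, and 5 of the 6 are auxiliary subunits, the exception being Kcnj6. For Kcnj6 the first of 2 coding exons of that transcript, with 898 nucleotides, held all 803 CDS reads. Its length class and change thus depend on the choice of transcript. Kcnip4 had 313 CDS reads in WT, 320 in Chx and 18 in Harr. Kcnj6 had 386, 393 and 24, and Kcnab2 had 858, 1040 and 79. In all 3 genes WT and Chx lay close together and Harr far below.

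From WT to Harr, 8 of 61 were called lower (background 14.3%), the same 6 genes together with Kcnj9 (-1.57 ± 0.59) and Kcna2 (-1.14 ± 0.23), and 3 were called higher (background 5.3%), namely Kcnh3 (1.28 ± 0.36), Kcns1 (1.16 ± 0.38) and Kcnh8 (1.02 ± 0.35), none of which stayed called when reads were scaled to the library total. The highest from Chx to Harr were Kcnh8 (0.89 ± 0.33) and Kcns1 (0.75 ± 0.36), neither of which was called. Scaling to the library total lowered the median of all genes to -0.60 from Chx to Harr and to -0.51 from WT to Harr, so changes are to be read relative to all genes. Between Chx and WT none of the 61 was called higher (background 0.201%) or lower (background 0.122%), and the members ranged from -0.73 for Kcnj9 to 0.76 for Kcnh3. Kcne1l (-0.49 ± 0.17) and Kcnc2 (-0.41 ± 0.11) were next to Kcnj9 at the low end, and Kcnt1 (0.54 ± 0.21) and Kcnf1 (0.49 ± 0.06) next to Kcnh3 at the high end.

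CDS length went along with the change from Chx to Harr. Spearman's rho was 0.638 over the 61 members and 0.589 over 11459 genes, given across genes as a description. The median change was -0.84 in 13 members with a CDS under 1200 nucleotides, -0.21 in 29 members of 1200 to 2000 and 0.45 in 19 members of 2000 to 4000, beside -0.58, -0.07 and 0.36 over all genes. Kcnmb4 departed from this order, since its CDS of 633 nucleotides had 226 reads in WT, 339 in Chx and 93 in Harr, a change of 0.56 ± 0.17. Kcnd2, with 1893 nucleotides, had a change of -0.62 ± 0.09 and lay below the median of its length class.

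**Figure D4:**
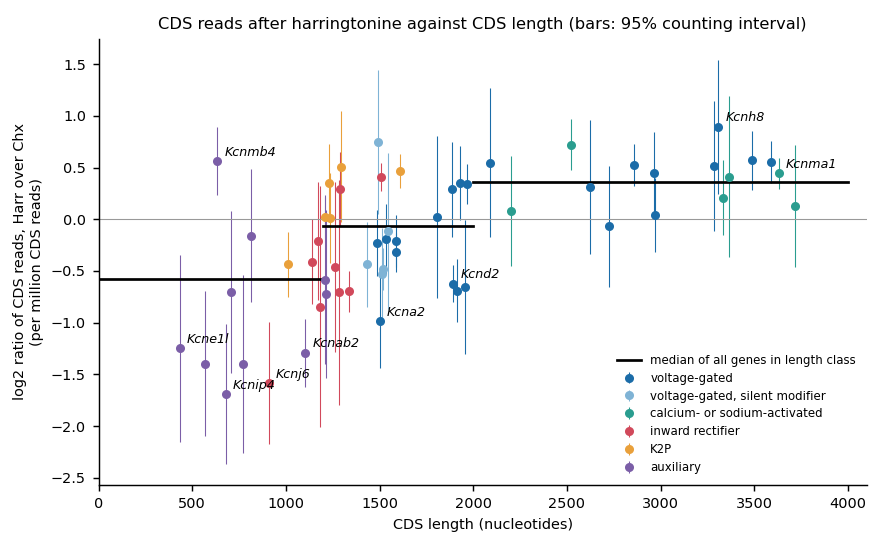
Log2 ratio of CDS reads from Chx to Harr against CDS length in nucleotides for 58 members, coloured by class, with 95% counting intervals. Horizontal lines are medians of all genes in 3 length classes (-0.58, -0.07 and 0.36), Kcnip4 (-1.69) and Kcnj6 (-1.58) lie lowest, and Kcnmb4 (0.56) lies above the other short genes.

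Position along the CDS was compared where exons allowed. In 17 members with short coding exons both 300 to 900 and over 1500 nucleotides from the start codon, the near part had 1222 reads and the far part 1482 in WT, 1597 and 1996 in Chx, and 230 and 666 in Harr. The near-to-far ratio in Harr was 0.432 times that in Chx (interval 0.366 to 0.508) and 0.419 times that in WT (0.354 to 0.495), beside 0.241 and 0.227 over 5127 genes, and Chx was 0.970 times WT (0.878 to 1.07). With 300 to 600 and over 2100 nucleotides as limits, 10 members gave 0.240 (0.144 to 0.397) against Chx and 0.266 (0.159 to 0.444) against WT, beside 0.209 and 0.192 over 2828 genes, so the gap to all genes depends on the limits. These 17 are Kv7 and Kv10 to Kv12 channels, Kcnma1, Kcnt1, Kcnt2 and Kcnu1. Of 9 with at least 30 near reads in Chx and WT, 5 had an interval below 1 against Chx (background 87.7%) and 6 against WT (background 87.9%), and all 9 ratios were below 1. Kcnma1 had 209 near and 623 far reads in WT, 267 and 843 in Chx, and 16 and 277 in Harr, a ratio of 0.187 against Chx (0.112 to 0.314).

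Kv4 genes carry most of their CDS in a long first coding exon, and there the shift was plain. The first coding exon of Kcnd2 held 1200 of 1566 CDS reads in WT (76.6%), 1822 of 2369 in Chx (76.9%) and 123 of 287 in Harr (42.9%, interval 37.3 to 48.6). For Kcnd3 the shares were 80.5%, 84.2% and 65.3%, and for Kcnd1 they were 72.8%, 81.2% and 47.6%. Intervals of Harr did not overlap those of Chx in any of the 3, while for Kcnd1 those of Harr (28.3 to 67.6) and WT (65.1 to 79.3) did. For the Kv3 genes Kcnc2 (61.4% in Chx and 62.3% in Harr) and Kcnc4 (69.95% and 80.4%) the interval of the change held 0. Among 9 members with a first coding exon of at least 600 nucleotides, later exons of at least 300 nucleotides and at least 100 CDS reads in Chx and 20 in Harr, 5 were lower in Harr than in Chx with an interval excluding 0 (background 67.3%) and 1 was higher (background 1.89%). Against WT the counts were again 5 lower (background 66.0%) and 1 higher (background 2.65%). Kcnd1, Kcnc4, Kcnn3 and others of these 9 were chosen for exon length and reads after the files had been seen.

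**Figure D5:**
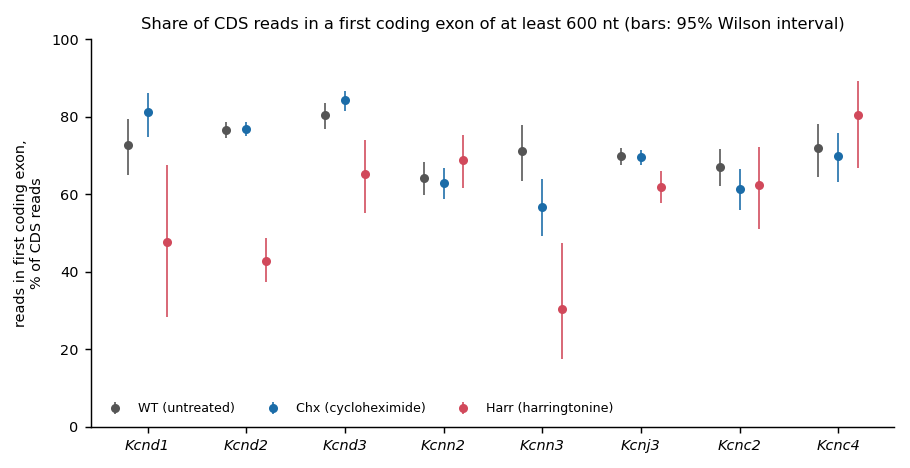
Share of CDS reads in the first coding exon, in percent, for 8 members in which it has at least 600 nucleotides and which meet the limits on later exons and reads, with 95% Wilson intervals for each library. The 3 Kv4 genes at the left have Harr below WT and Chx, with overlapping intervals of Harr and WT for Kcnd1 (Kcnd2 42.9% against 76.9% in Chx), whereas the intervals of Kcnc2 and Kcnc4 overlap across the libraries.

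Reads in 3′ UTRs, where no translation is annotated, were few. The 3′ UTR:CDS ratio had a median change of 3.66 from Chx to Harr in the 15 members with at least 10 reads of the pair in each region, 2.62 from WT to Harr in 18 and -1.35 from WT to Chx in 13, beside 3.76, 2.59 and -0.93 over all genes. Kcnd2 had 8 3′ UTR reads in WT, 2 in Chx and 29 in Harr, and Kcna6 had 29, 15 and 38. The read limit is on the pair, so a gene can pass through its Harr reads alone, as Kcnd2 does against Chx. This favours positive changes, in members and in all genes alike. Under that shared limit, member medians were close to those of all genes in the Harr comparisons.

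Partners of potassium channels that carry no Kcn symbol were read for the same change. Of 26 auxiliary, anchoring and regulatory genes, 18 had enough 5′ UTR reads and all 18 were called higher in Harr than in Chx, beside the background of 88.8%, with a median of 2.31. Calm3 (5.15 ± 0.05), Calm2 (4.06 ± 0.20) and Dlg1 (3.85 ± 0.70) were highest, and Adam22 (1.58 ± 0.19), Nedd4l (1.80 ± 0.12) and Lgi1 (2.02 ± 0.11) lowest. Calm2 and Calm3 encode the same calmodulin that SK and Kv7 channels bind, Dlg1 is a scaffold, Adam22 and Lgi1 form a complex that organizes Kv1, and Nedd4l is a ubiquitin ligase. The 5′ UTRs of Calm2 and Nedd4l overlap a CDS in part. In the CDS, 3 of 21 partners were called lower in Harr than in Chx and 1 higher, near the backgrounds of 13.7% and 4.63%.

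Sodium, calcium and HCN channel genes, chosen by symbol, gave a view of other voltage-dependent channels. Their 43 genes had a 5′ UTR share of 10.46% in WT, 12.8% in Chx and 33.3% in Harr, below that of the potassium channel genes in each library. Per nucleotide the order was the opposite, since their ratio of 5′ UTR to CDS density was 1.31 in WT, 1.65 in Chx and 5.69 in Harr, beside 0.821, 0.883 and 4.23 in the potassium channel genes. The median 5′ UTR:CDS change from Chx to Harr was 1.83 in 31 of them, with 26 called higher (background 88.8%) and none lower (background 0.12%), beside 2.19 in the potassium channel genes and 2.46 over all genes. Their CDS changed by a median of 0.32 from Chx to Harr in 33 genes, beside 0.01.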

How the data were processed

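Per the file headers, the authors counted reads of 25 to 100 nucleotides at their 5′ end (offset 0) with Plastid on mm10 after removing ribosomal reads and duplicates. For alignment, the study names Bowtie and TopHat for its search for reading frames and Rsubread for other libraries counted with Plastid, and which alignment these tables come from is not stated. The 9 deposited tables hold counts per exon segment, coverage signal (counts per nucleotide) and RPKM, all deposited by the authors per library. Only the deposited counts were used, and RPKM was recomputed from them and the header total. Identifiers (142446, of which 99.1% matched with version and 99.4% without) were joined to GENCODE M21, the longest transcript with 3 regions was kept for each gene, and segments were summed.

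There was 1 library per treatment, grouped by the treatment label, so no test was run. Intervals are Wilson intervals for shares and normal intervals of log2 ratios from counts, at 95%. Such intervals, like the floor of 3 counts, reflect counting alone. A CDS change was called at a size of 1 with an interval excluding 0. The rule for 5′ UTR:CDS calls was run on simulated counts with changes planted in well-read genes. That simulation held counting error only, so it says nothing of variation between libraries or of sparsely read genes. Alternatives were another pseudocount, transcript choice, scaling, read minimum, overlapping UTRs and position limits. The rule for members uses symbols only, but it and the family, partner and marker lists were chosen with earlier results of these data known. Named genes were, in each subfamily, the member with the most CDS reads, any other with at least 1000 CDS reads, Kcnj9, the 3 highest and 3 lowest in each change (at least 10 5′ UTR and CDS reads in the pair, or 100 CDS reads), members at 0, those known from glia, vessels or epithelia (Kcnj10, Kcnj8, Kcnj13, Kcnk13, Kcne1 and Kcnu1) and the 3 highest and 3 lowest partners. The transcript sequence of Kcnab2 did not match the tables and was left out. UTRs overlapped a CDS on the same strand in 7 members (5′) and 6 members (3′). Python 3.11.15, NumPy 2.4.6, pandas 2.3.3 and SciPy 1.17.1 were used. Some members are not reported here by name and are left out of the plots, but are part of every count, sum and median.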

Additional observations from a re-analysis of the deposited data

Results flagged for a closer look

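Genes of the symbol form that are not protein coding were outside every comparison, and 3 of them had more reads per 1000000 in Harr than in untreated cells, with a counting interval of the log2 ratio that excluded 0. UTR reads of all genes also differed in this direction, with 5.63 times as many 5′ UTR reads and 1.94 times as many 3′ UTR reads per 1000000 in Harr as in WT, and Kcnd3os and Kcnq1ot1 were listed among 5′ UTRs and Kcnmb4os2 among 3′ UTRs. Kcnmb4os2, which runs antisense to Kcnmb4, had 29 reads in WT, 48 in Chx and 39 in Harr, or 0.9597, 1.34 and 4.00 reads per 1000000. Kcnq1ot1, the antisense transcript of the imprinted Kcnq1 region, had 42, 41 and 31 reads, or 1.39, 1.15 and 3.18 per 1000000. Kcnd3os had 9, 13 and 17 reads, or 0.298, 0.364 and 1.74 per 1000000. Kcnq1 itself had no read in any of the 3 libraries. Where such a transcript overlaps a gene on the other strand, reads of both cannot be told apart unless strand was used in counting, which is not given in the sources used here. With 1 library per treatment, the difference between Harr and WT has no replicate check. Whether reads in these transcripts come from ribosomes was not tested.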

How the results depend on the processing

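No paired analysis was possible because each treatment had 1 library. The median 5′ UTR:CDS change of the members stayed between 2.04 and 2.30 for Harr over Chx, 2.22 and 2.56 for Harr over WT, and 0.16 and 0.25 for Chx over WT under 4 kinds of alternative (another pseudocount, transcript choice, overlapping UTRs and read minimum), and with counts of 0 at the floor it was 2.60 for Harr over WT. Members called lower in Chx than in WT numbered 1 with 5 added to each count, and members called higher numbered 4 without genes whose UTRs overlap a CDS. Scaled to the header total, the median CDS change was -0.54 for Harr over Chx, with 19 members lower (background 31.2%), and -0.46 for Harr over WT, with 0 higher. With at least 20 CDS reads, or with no minimum, 1 member was higher in Harr than in Chx. Scaled to CDS reads, the members took 1460 (WT), 1622 (Chx) and 1610 (Harr) reads per 1000000. The 5′ UTR share with the most-read transcript was 17.3% in WT, 18.2% in Chx and 50.7% in Harr. Without members whose UTRs overlap a CDS it was 17.4%, 17.7% and 50.3%. Without Kcnj3 it was 14.98% in WT and 16.6% in Chx. With near and far limits of 300 to 600 and over 2100 nucleotides, the near-to-far ratio was 0.240 for Harr over Chx, 0.266 for Harr over WT and 1.11 for Chx over WT. Alternatives for partners and for upstream ATG were chosen after seeing the data. The cause of these shifts was not tested.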
